A study of Mus musculus with 19 samples.

Results

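The mitochondrial genome encodes 13 proteins, and the 6 that are not subunits of complex I are described here through the short RNA fragments they left in mouse sperm: the cytochrome c oxidase subunits mt-Co1, mt-Co2 and mt-Co3, cytochrome b (mt-Cytb), and the ATP synthase subunits mt-Atp6 and mt-Atp8. A read was counted for a gene when it was at least 18 nt long, matched the sense strand of that gene without a mismatch and matched none of the mitochondrial tRNAs, mitochondrial rRNAs or annotated nuclear rRNAs used. Nuclear tRNAs and full-length 28S rRNA were not used here, so a read that also matches one of them was kept. All 6 genes had reads in each of the 19 libraries, out of 21177 genes with at least 1 read in the series. The rule names the genes and sets no threshold on a measured value.

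Sperm came from wild type male mice (C57BL/6J) that were 8 weeks old at the start and were gavaged for 4 weeks with dicyclohexyl phthalate (DCHP), a plasticizer, or with the oil vehicle alone. RNA of 15 to 50 nt was cut from a gel and sequenced either as it was (traditional RNA-seq) or by PANDORA-seq, in which T4 polynucleotide kinase (T4PNK) repairs RNA ends for adapter ligation and the demethylase AlkB removes methyl groups that stop reverse transcription. The series holds 4 PANDORA-seq control, 5 PANDORA-seq DCHP, 5 traditional control and 5 traditional DCHP libraries of 21588335 to 56506344 reads. Groups were taken from the titles, which separate control from treated, since the treatment field reads DCHP for controls too. The study describes its sperm libraries as biological replicates, while the labels give a replicate number only, and the p-values measure the spread between these libraries. The deposited reads end at 45 nt. Reads carry no molecular identifiers, so a count can include amplification copies of the same molecule.

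Mitochondrial messenger RNAs are cut out of long precursor transcripts, mostly at the tRNAs that lie between the genes. mt-Co1, mt-Co2 and mt-Co3 form the catalytic core of cytochrome c oxidase, which passes electrons to oxygen, and mt-Cytb is the central subunit of complex III, which feeds electrons towards it. mt-Atp6 forms part of the proton path of ATP synthase, and mt-Atp8 is a small membrane subunit beside it. In sperm the mitochondria are wrapped around the midpiece of the tail.

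In GRCm38 all 6 genes lie on the plus strand of the mitochondrial chromosome and have no introns. They are mt-Co1 at chrM:5328-6872, mt-Co2 at chrM:7013-7696, mt-Atp8 at chrM:7766-7969, mt-Atp6 at chrM:7927-8607, mt-Co3 at chrM:8607-9390 and mt-Cytb at chrM:14145-15288. mt-Atp8 and mt-Atp6 share 43 bases, and at most 3 reads of a library lay wholly inside them.

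The most abundant PANDORA-seq read of each gene is printed here with its first base in capitals and U written as T, because 5 of the 6 followed an A in the gene and all 6 began with U.
mt-Co1: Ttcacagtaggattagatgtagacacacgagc
mt-Co2: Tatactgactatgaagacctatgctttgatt
mt-Co3: Ttttgtagacgtagtctgacttttcct
mt-Cytb: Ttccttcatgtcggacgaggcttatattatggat
mt-Atp6: Ttactgcaggacacttattaatacacc
mt-Atp8: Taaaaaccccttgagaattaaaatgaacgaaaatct
They lie at chrM:6204-6235, chrM:7340-7370, chrM:9335-9361, chrM:14427-14460, chrM:8417-8443 and chrM:7905-7940 on the plus strand of GRCm38, and only the mt-Atp8 read followed a G. That mt-Atp8 read was rare, with 0 to 6 reads per PANDORA-seq library, and was seen in 2 of 4 control and 4 of 5 DCHP libraries.

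The most abundant read of each gene in traditional RNA-seq is shown in the same way, because all 6 of these began with A.
mt-Co1: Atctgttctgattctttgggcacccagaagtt
mt-Co2: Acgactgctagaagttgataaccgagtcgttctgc
mt-Co3: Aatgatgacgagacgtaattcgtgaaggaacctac
mt-Cytb: Atgtcggacgaggcttatattatggat
mt-Atp6: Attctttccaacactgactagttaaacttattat
mt-Atp8: Atgccacaactagatacatcaacat
They lie at chrM:6025-6056, chrM:7411-7445, chrM:8773-8807, chrM:14434-14460, chrM:8054-8087 and chrM:7766-7790. Both mt-Cytb reads end at base 316 of the gene and differ only in where they start, at base 283 in PANDORA-seq and base 290 in traditional RNA-seq. The traditional mt-Atp6 read led through 1 library: it had 36 reads in traditional DCHP 2, 0 in the other 4 DCHP libraries and 0 to 7 in controls, where the PANDORA-seq read of that gene had 0 to 14. The traditional mt-Atp8 read starts at the first base of the gene and was seen in 1 of 5 control and 2 of 5 DCHP libraries.

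These reads were picked for their abundance, so their shares are a description. In the PANDORA-seq libraries themselves the traditional read was as frequent as the PANDORA-seq read or more so for mt-Cytb in control 2 (34 and 32 reads), control 3 (160 and 106) and DCHP 1 (91 and 91), and for mt-Co3 in control 2 (38 and 12) and DCHP 1 (61 and 50). The PANDORA-seq read of mt-Atp6 made up 27.4% ± 8.18 (SD, n = 4) of that gene's reads in PANDORA-seq control libraries and 21.1% ± 5.598 (n = 5) in DCHP libraries. In traditional RNA-seq it made up 5.62% ± 3.94 and 1.69% ± 1.86 (n = 5 each). The leading PANDORA-seq reads of mt-Co1, mt-Co2, mt-Co3 and mt-Cytb held 7.45%, 4.54%, 4.32% and 5.22% of their gene in PANDORA-seq controls, all below that share. The leading mt-Cytb read was absent from all 5 traditional DCHP libraries, and that of mt-Co3 was seen in 1 of 10 traditional libraries. Fragments were otherwise diverse, with 1326 to 2863 distinct reads over the 6 genes per PANDORA-seq library and 365 to 934 per traditional library.

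Levels are given in RPM, reads per 1000000 cleaned reads of a library. In PANDORA-seq, mt-Co1, the catalytic subunit of cytochrome c oxidase, stood at 38.7, 50.1, 101 and 54.6 RPM in control replicates 1 to 4 and at 58.1, 42.6, 44.1, 57.4 and 46.0 RPM in DCHP replicates 1 to 5. In traditional RNA-seq it stood at 12.5, 19.8, 24.6, 16.6 and 11.4 RPM in controls and at 10.8, 81.9, 23.2, 11.3 and 12.3 RPM in DCHP libraries. A single library of each method stood above the rest, PANDORA-seq control 3 and traditional DCHP 2, and the exposure groups overlapped in both methods.

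mt-Co2, which carries the copper site that takes electrons from cytochrome c, stood at 26.9, 37.6, 89.7 and 44.9 RPM in PANDORA-seq controls and at 53.4, 37.0, 39.3, 48.5 and 37.6 RPM with DCHP. Its traditional values were 9.93, 10.8, 15.1, 8.02 and 11.3 RPM in controls and 6.67, 27.8, 11.2, 9.44 and 10.2 RPM with DCHP. The same pair of libraries was highest in its method. mt-Co3, the third core subunit, stood at 17.1, 21.9, 55.0 and 33.5 RPM in PANDORA-seq controls and at 32.6, 21.4, 24.9, 31.8 and 24.1 RPM with DCHP. Its traditional values were 8.46, 10.2, 7.64, 5.32 and 5.75 RPM in controls and 4.67, 20.7, 12.5, 7.07 and 5.81 RPM with DCHP. Again control and DCHP values overlapped within each method.

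mt-Cytb, the only mitochondrially encoded subunit of complex III, stood at 18.4, 19.4, 66.4 and 32.7 RPM in PANDORA-seq controls and at 32.4, 24.9, 18.5, 29.4 and 33.4 RPM with DCHP. In traditional RNA-seq it was at 3.11, 5.47, 5.90, 3.50 and 3.47 RPM in controls and at 3.04, 15.2, 4.53, 3.63 and 3.18 RPM with DCHP. All 9 PANDORA-seq values lay above all 10 traditional values, traditional DCHP 2 included.

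mt-Atp6 stood at 12.2, 13.1, 31.7 and 15.3 RPM in PANDORA-seq controls and at 12.7, 13.2, 10.6, 15.6 and 15.1 RPM with DCHP. Its traditional values were 2.50, 4.38, 3.57, 3.06 and 1.28 RPM in controls and 1.81, 16.9, 4.66, 3.50 and 2.60 RPM with DCHP. Here traditional DCHP 2 lay above all 5 PANDORA-seq DCHP libraries. mt-Atp8, whose gene is only 204 nt long, gave 5 to 64 reads per library, or 0.139 to 1.58 RPM, and its 4 groups overlapped. A small difference was not detectable at this depth. In bulk sperm samples, fewer cells of a type and less RNA per cell cannot be told apart.

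**Figure D1:**
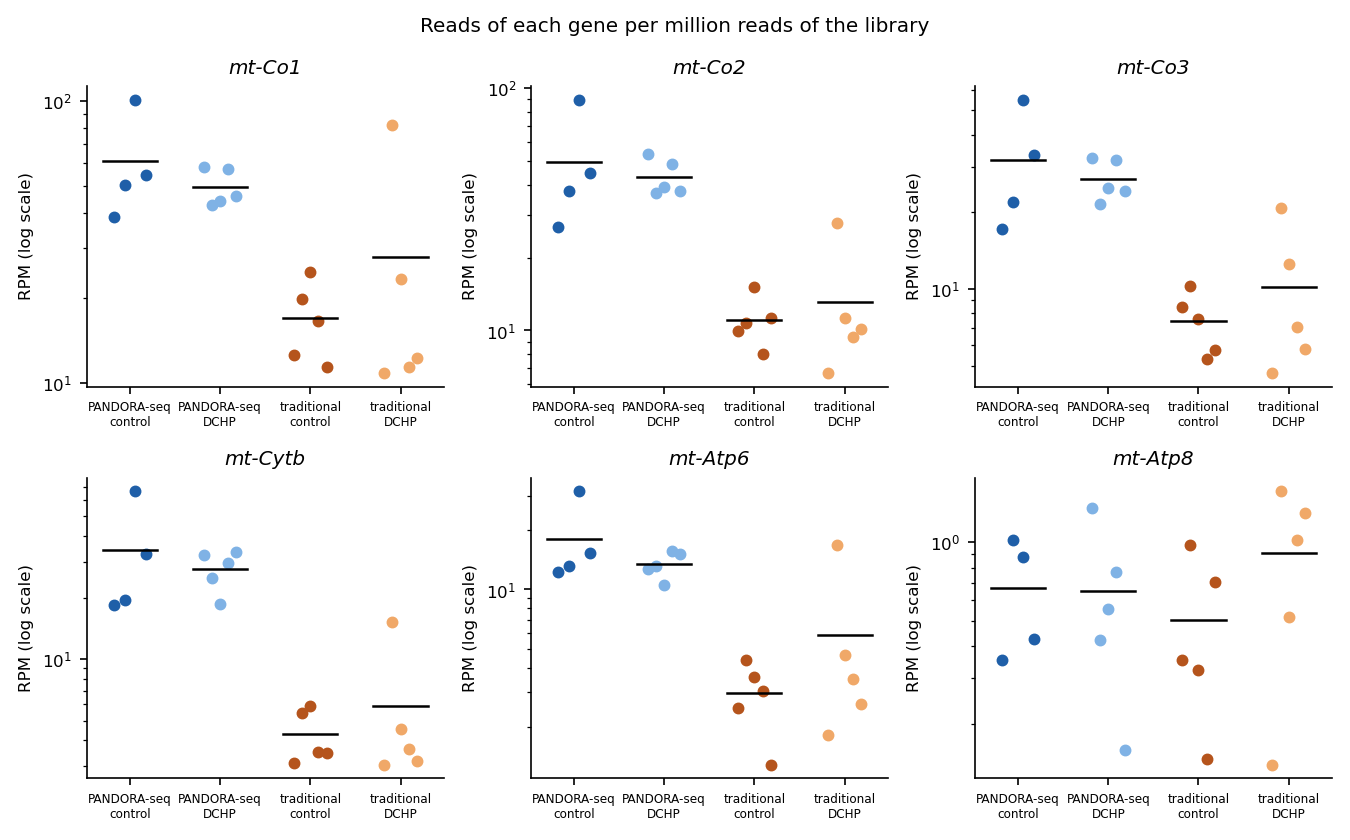
Levels of the 6 genes in RPM (log axis), 1 point per library in each of the 4 groups, with a short line at the group mean. PANDORA-seq control replicate 3 and traditional DCHP replicate 2 stand above their groups in mt-Co1 (101 and 81.9 RPM), while the mt-Atp8 groups overlap.

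Both libraries that stood apart were deep enough for these counts, with 43235949 reads in PANDORA-seq control 3 and 21588335 in traditional DCHP 2, the smallest of the series. In PANDORA-seq control 3 the 6 genes summed to 344.6 RPM against 113.5 to 181.3 RPM in the other controls. Its markers of epididymal epithelium, red blood cells and white blood cells were also at the top of the controls, at 969.9, 31.0 and 36.7 RPM. So were nuclear mRNAs as a whole, at 122000 RPM, and the ratio of the 6 genes to them. Its sperm markers, at 232.8 RPM, were below the 271.8 RPM of control 4. Smooth muscle markers, at 30.97 RPM, were below the 33.31 RPM of control 2. PANDORA-seq DCHP 1 had more epididymal and white blood cell markers, at 1009 and 38.3 RPM, with the 6 genes at 190.4 RPM. In traditional DCHP 2 the sum was 163.9 RPM against 27.1 to 56.7 RPM in the other 4, while epididymal markers were at 76.2 RPM, within the 60.2 to 148.7 RPM of that group. Its red blood cell markers were at 4.73 RPM against 0.958 to 2.33 in the other 4, its white blood cell markers at 17.4 RPM against 4.08 to 10.6, and its sperm markers at 220.5 RPM, the lowest of the group. As a ratio to nuclear mRNA reads, which made up 29090 RPM of that library and 17720 to 22960 RPM of the others, the 6 genes were likewise higher there. The part of these values in the high levels was not tested.

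Levels between genes were compared per kb of gene. mt-Co2 was above mt-Co1 in 18 of 19 libraries, the exception being traditional DCHP 2, and above mt-Co3, mt-Cytb, mt-Atp6 and mt-Atp8 in all 19. In PANDORA-seq controls mt-Co2 was at 72.8 ± 40.4 RPM per kb, mt-Co3 at 40.6 ± 21.5, mt-Co1 at 39.5 ± 17.7, mt-Cytb at 29.9 ± 19.6, mt-Atp6 at 26.5 ± 13.4 and mt-Atp8 at 3.28 ± 1.62 (SD, n = 4). mt-Co1 and mt-Co3 had no fixed order: mt-Co1 was higher in 2 of 4 PANDORA-seq control, 1 of 5 PANDORA-seq DCHP, 3 of 5 traditional control and 3 of 5 traditional DCHP libraries. In traditional controls the order was mt-Co2 at 16.1 ± 3.81, mt-Co1 at 11.0 ± 3.52, mt-Co3 at 9.54 ± 2.57, mt-Atp6 at 4.34 ± 1.71, mt-Cytb at 3.75 ± 1.13 and mt-Atp8 at 2.46 ± 1.64 RPM per kb (n = 5).

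The place of mt-Cytb depended on the method. Per kb it was above mt-Atp6 in 5 of 5 PANDORA-seq DCHP and 2 of 4 PANDORA-seq control libraries, but in 0 of 5 traditional DCHP and 1 of 5 traditional control libraries. As a share of the reads of the 6 genes, which does not depend on how libraries are scaled, mt-Cytb held 13.5% to 21.4% in PANDORA-seq libraries and 7.98% to 11.2% in traditional libraries, with no overlap. mt-Co1 held 29.3% to 34.98% in PANDORA-seq and 31.5% to 49.9% in traditional RNA-seq. The shares of mt-Co2, mt-Co3 and mt-Atp6 overlapped between the methods, and no test was made of shares within the list. Together the 6 genes made up 75.2% to 84.4% of all reads on mitochondrial messenger RNAs.

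The first comparison asked whether DCHP changed the fragments of these genes within a method. None of the 6 genes passed edgeR's quasi-likelihood test (adjusted p below 0.05) in PANDORA-seq, where 0.0% of 12052 genes passed. At an unadjusted p under 0.05 none of the 6 and 330 of all genes were found, and DESeq2 called 0 genes with 362 under the unadjusted 0.05. With miRNA hairpin reads as the library size, PANDORA-seq gave 8 genes called higher with DCHP and traditional RNA-seq gave 29, none of the 6 among them. The log2 fold changes, DCHP over control, were -0.30 ± 0.23 (SE) for mt-Co1, -0.21 ± 0.25 for mt-Co2, -0.24 ± 0.25 for mt-Co3, -0.31 ± 0.29 for mt-Cytb, -0.43 ± 0.23 for mt-Atp6 and -0.01 ± 0.42 for mt-Atp8, each with an adjusted p of 1.0. Without PANDORA-seq control 3 those of mt-Co1, mt-Co2, mt-Co3, mt-Cytb and mt-Atp8 turned positive, at 0.05, 0.24, 0.15, 0.23 and 0.18, and that of mt-Atp6 was -0.01.

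In traditional RNA-seq 0 of the 6 genes passed as well, with 0.0% of 8762 genes (327 at an unadjusted p under 0.05, none of the 6 among them, and 0 and 831 by DESeq2). The log2 fold changes were 0.71 ± 0.52 for mt-Co1, 0.24 ± 0.36 for mt-Co2, 0.44 ± 0.39 for mt-Co3, 0.46 ± 0.44 for mt-Cytb, 0.98 ± 0.54 for mt-Atp6 and 0.83 ± 0.60 for mt-Atp8, with adjusted p from edgeR of 0.954 to 0.976. Without traditional DCHP 2 they were -0.24, -0.23, 0.01, -0.26, 0.08 and 0.55 in the same order. The 95% intervals of the fold changes included 0 for all 6 genes in both methods. For mt-Atp6, the gene nearest to the threshold, they ran from -0.89 to 0.03 in PANDORA-seq and from -0.07 to 2.03 in traditional RNA-seq.

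The DCHP effect was lower in PANDORA-seq than in traditional RNA-seq for all 6 genes, by -0.45 (mt-Co2) to -1.40 (mt-Atp6) on the log2 scale, but none of these differences passed the edgeR test of the difference itself (0.0% of 12921 genes, 554 at an unadjusted p under 0.05, and 1 gene, no member, with 1043 by DESeq2). For mt-Atp6 the difference had an unadjusted p of 0.0419 and an adjusted p of 1.0 in edgeR. With both high libraries left out, a choice made after the data were seen, the differences were 0.29, 0.48, 0.15 and 0.50 for mt-Co1, mt-Co2, mt-Co3 and mt-Cytb, and -0.09 and -0.40 for mt-Atp6 and mt-Atp8.

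**Figure D2:**
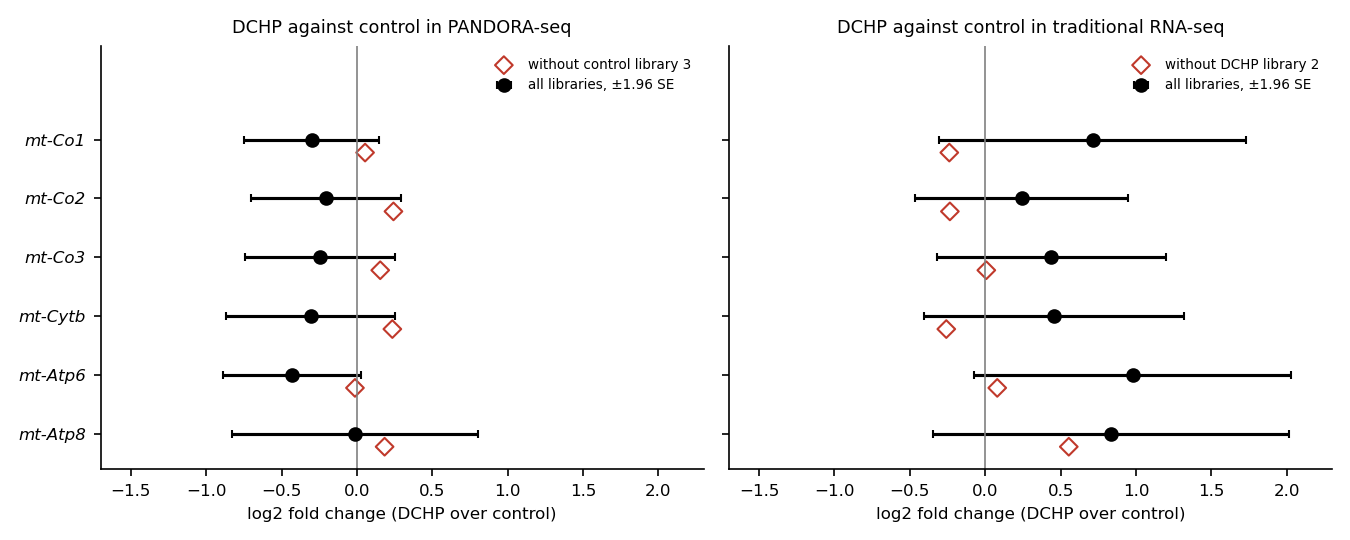
Log2 fold change of read counts, DCHP over control, for the 6 genes in PANDORA-seq and traditional RNA-seq, with filled points and 95% intervals from the SE for all libraries, and open diamonds for the value without PANDORA-seq control 3 or traditional DCHP 2. The intervals include 0 for all 6 genes in both methods, and most values move towards or across 0 without that library (mt-Co1 from -0.30 to 0.05 in PANDORA-seq and from 0.71 to -0.24 in traditional RNA-seq).

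The second comparison asked how far the treatment of RNA ends and methyl groups changed what was read. In control sperm, per total read, 5 of the 6 genes were higher in PANDORA-seq, where 65.4% of 11264 genes were called higher and 7.11% lower (72.5% in either direction). Of the 5 only mt-Cytb remained higher under TMM scaling, where 1164 of 11264 genes were called higher and 2203 lower. With nuclear mRNA reads as the library size none of the 5 did and mt-Atp8 was called lower. Of all 11397 genes tested with that size, 221 were called higher and 4435 lower. With miRNA hairpin reads all 6 were called higher, as were 99.56% of all genes called. The log2 differences per total read were 1.85 ± 0.37 (SE) for mt-Co1, 2.17 ± 0.38 for mt-Co2, 2.09 ± 0.38 for mt-Co3, 2.99 ± 0.43 for mt-Cytb and 2.60 ± 0.41 for mt-Atp6, with edgeR adjusted p of 0.000104 to 0.000842. mt-Atp8 differed by 0.41 ± 0.54 (adjusted p = 0.493). The median gene differed by 1.495. The makeup of the libraries differed as well: miRNA hairpins held 3.86% to 13.8% of traditional control reads and 0.0889% to 0.122% of PANDORA-seq control reads, and the part of this in the differences per total read was not tested.

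TMM, which centres the libraries on the bulk of the genes, brought that median to 0.00 and turned the split of calls from 90.2% higher to 34.6% higher. Against that centre mt-Cytb was higher by 1.28 (edgeR adjusted p = 0.0133), mt-Atp6 by 0.92 (0.0560), mt-Co2 by 0.47 (0.330), mt-Co3 by 0.33 (0.540) and mt-Co1 by 0.19 (0.688), and mt-Atp8 was at -1.40 (0.0962). DESeq2 gave 1.40 for mt-Cytb (adjusted p = 0.00129) and 1.04 for mt-Atp6 (0.0209) and called none of the other 4. Over all 20101 genes it called 1734 higher and 3131 lower, so 35.6% of its calls were higher. Of the 6 genes, mt-Cytb had the highest value per total read, under TMM and in DESeq2.

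In DCHP sperm 4 of the 6 genes were higher per total read in PANDORA-seq, where 74.0% of 11533 genes were called higher and 8.34% lower (82.4% in either direction). Under TMM scaling none of the 4 was called and mt-Atp8 was called lower, where 2357 of 11533 genes were called higher and 2899 lower. With nuclear mRNA reads as the library size none was called higher and mt-Co1 and mt-Atp8 were called lower. Of all 11210 genes tested with that size, 603 were called higher and 4467 lower. With miRNA hairpin reads as the library size all 6 were called higher, as were 99.6% of all genes called. miRNA reads are the kind of scaling the study used for its tRNA and rRNA fragments, and with them mt-Atp8 was higher by 5.51 (edgeR adjusted p = 6.51e-08). Per total read the log2 differences were 1.73 ± 0.34 for mt-Co2, 1.41 ± 0.35 for mt-Co3, 2.24 ± 0.42 for mt-Cytb and 1.21 ± 0.47 for mt-Atp6, with edgeR adjusted p of 0.000148 to 0.0257. Those of mt-Co1 and mt-Atp8 were 0.83 ± 0.48 (adjusted p = 0.120) and -0.44 ± 0.56 (0.472), and the median gene differed by 1.69. Without traditional DCHP 2, 5 genes were called, and mt-Co1 differed by 1.78 (adjusted p = 7.76e-06). With the replicate number as a block, 5 members were called as well. Under TMM the split of all calls went from 89.9% to 44.8% higher, mt-Cytb was at 0.74 (adjusted p = 0.0576), mt-Co1 at -0.59 (0.236) and mt-Atp8 at -2.05 (0.00566). With the nuclear mRNA size 11.9% of all calls were higher, mt-Co1 was at -1.19 (edgeR adjusted p = 0.0237) and mt-Atp8 at -2.69 (0.000676).

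Fragments were longer in PANDORA-seq. Over the reads of the 6 genes the mean length was 31.9, 31.9, 31.2 and 32.0 nt in PANDORA-seq controls and 32.3, 33.4, 30.7, 32.4 and 33.6 nt with DCHP. In traditional RNA-seq it was 28.6, 27.4, 28.7, 27.8 and 28.7 nt in controls and 28.0, 30.4, 27.9, 29.8 and 28.8 nt with DCHP. Every PANDORA-seq library lay above every traditional library. Reads of 18 to 24 nt made up 6.96% to 17.8% of the reads in PANDORA-seq libraries and 22.5% to 38.6% in traditional libraries.

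Mean length per gene was tested with limma where a gene had at least 50 reads in every library of a comparison. In controls it was greater in PANDORA-seq for all 4 genes tested, where 89.3% of 749 genes were longer and 1.34% shorter (90.7% in either direction): by 3.47 ± 0.58 nt (SE) for mt-Co1, 3.07 ± 0.67 for mt-Co2, 4.86 ± 0.62 for mt-Co3 and 3.61 ± 0.53 for mt-Cytb, with limma adjusted p of 7.89e-06 to 0.000651. With DCHP all 5 genes tested were longer, where 92.5% of 1012 genes were and 0.593% were shorter (93.1% in either direction): by 2.58 ± 0.85 nt for mt-Co1, 3.81 ± 0.73 for mt-Co2, 4.68 ± 0.95 for mt-Co3, 3.44 ± 0.96 for mt-Cytb and 2.70 ± 0.78 for mt-Atp6 (adjusted p 0.000146 to 0.00864). With only reads of 25 nt or more, 2 of the 5 were called longer with DCHP and mt-Atp6 was at -0.12 nt. In controls all 3 genes with enough reads of that length were called longer. The share of all genes called longer with only these reads is not reported here, so the counts stand without a background. The median gene was longer by 3.58 nt in controls, between the values of mt-Co1 and mt-Cytb, and by 4.52 nt with DCHP, which mt-Co3 alone exceeded. DCHP changed the mean length of 0 of the 5 genes tested in PANDORA-seq and 0 of the 4 in traditional RNA-seq by limma (0.0% of 3809 and of 965 genes, with 101 and 35 at an unadjusted p under 0.05), with differences of 0.35 to 1.24 nt and 0.17 to 1.24 nt. 

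**Figure D3:**
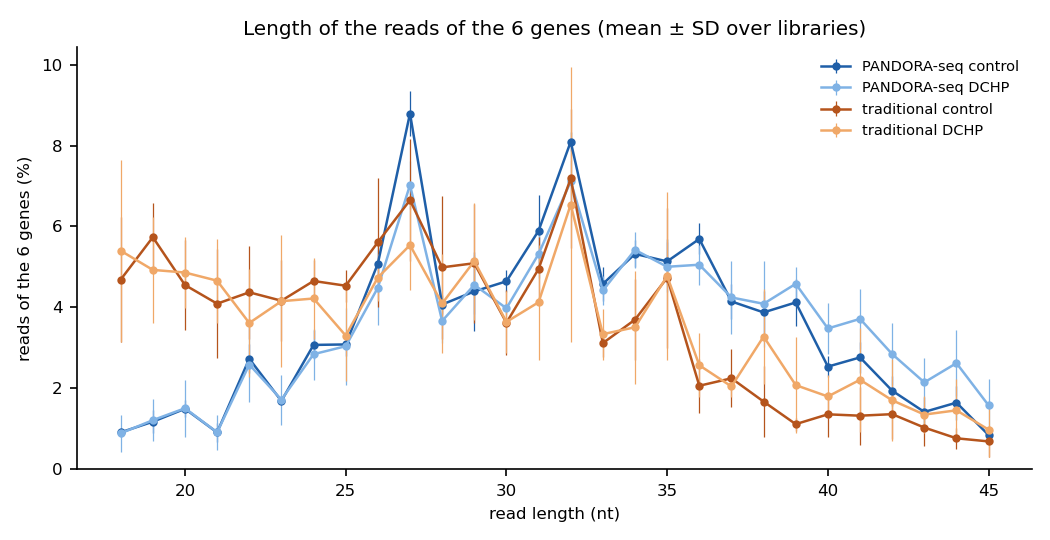
Share of the reads of the 6 genes at each read length from 18 to 45 nt, as the mean of the libraries of each of the 4 groups with bars of 1 SD. Traditional libraries hold more reads of 18 to 24 nt (means of 32.3% in controls and 31.8% with DCHP) than PANDORA-seq libraries (12.0% and 11.7%).

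The first base of the fragments separated the methods as well. Over the 6 genes, 68.6%, 61.2%, 72.9% and 63.4% of reads began with U in PANDORA-seq controls and 56.4%, 61.3%, 61.1%, 67.7% and 65.0% with DCHP. In traditional RNA-seq 32.5%, 33.6%, 23.4%, 31.3% and 23.6% began with U in controls and 23.2%, 11.6%, 16.8%, 37.4% and 33.4% with DCHP. No PANDORA-seq library overlapped a traditional one, and in traditional libraries the leading first base was A (51.7% ± 8.65 in controls, 56.9% ± 17.6 with DCHP). Traditional DCHP 2 had the highest share of A, 81.5%. U makes up 27.5% to 31.3% of the bases of these genes and A 29.5% to 40.7%.

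A test of this share was added after the reads had been seen. In controls the share of reads starting with U was higher in PANDORA-seq for all 4 genes tested, where 52.9% of 749 genes were called higher and 10% lower by limma (62.9% in either direction): by 39.0 ± 4.34 percentage points (SE) for mt-Co1, 35.6 ± 4.36 for mt-Co2, 31.2 ± 4.24 for mt-Co3 and 36.1 ± 5.14 for mt-Cytb. With DCHP it was higher for all 5 genes tested, where 23.9% of 1012 genes were called higher and 15.7% lower (39.6% in either direction): by 38.3 ± 5.21 points for mt-Co1, 39.4 ± 5.002 for mt-Co2, 25.6 ± 6.57 for mt-Co3, 37.8 ± 6.93 for mt-Cytb and 48.4 ± 5.41 for mt-Atp6 (adjusted p 8.41e-06 to 0.00722). The median gene differed by 9.74 points in controls and 3.29 points with DCHP. Each member tested differed by more than the median gene in both exposure groups. Within a method, DCHP did not change the share of any member past the threshold (0 of 5 and 0 of 4 genes tested by limma, none of them at an unadjusted p under 0.05, against 0.0263% of 3809 and 0.0% of 965 genes called and 603 and 53 genes at that unadjusted p): the differences were -5.73 to -2.77 points in PANDORA-seq, where the median gene was at -4.46, and -6.60 to 1.33 points in traditional RNA-seq.

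The base before the fragment, read from the gene, added to this. In PANDORA-seq 42.8% ± 2.71 of reads in controls (n = 4) and 39.3% ± 2.58 with DCHP (n = 5) began at a U that followed an A, although only 10.4% of the positions in the 6 genes are such steps. The shares in traditional RNA-seq were 13.6% ± 1.70 and 11.4% ± 5.57. By gene, in PANDORA-seq controls mt-Atp6 was at 57.0%, mt-Co1 at 45.2%, mt-Co3 at 45.1%, mt-Co2 at 43.8%, mt-Cytb at 27.2% and mt-Atp8 at 16.5%, and in traditional controls the range was 0.0% (mt-Atp8) to 15.2% (mt-Co1). With each distinct read counted once the shares were 31.8% and 29.7% in PANDORA-seq and 15.2% and 13.6% in traditional RNA-seq. The share that began at an A after a U was 9.29% ± 2.18 in PANDORA-seq controls and 19.7% ± 6.68 in traditional controls, against 9.55% of positions. The most frequent start in traditional RNA-seq was an A after a C, 22.7% ± 3.68 in controls and 27.3% ± 12.5 with DCHP. In PANDORA-seq this start made up 19.3% ± 3.39 and 21.1% ± 3.15, so both methods were above the 8.96% of positions.

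The last base and the base after it differed as well. In PANDORA-seq controls 19.2% ± 2.08 of reads ended at a U before a C and 11.9% ± 3.22 at a U before an A, against 11.8% ± 3.80 and 3.61% ± 0.84 in traditional controls, with 7.25% and 9.55% of positions being such steps. Reads ending at a G before a G made up 0.37% ± 0.11 in PANDORA-seq controls and 1.75% ± 0.42 in traditional controls.

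**Figure D4:**
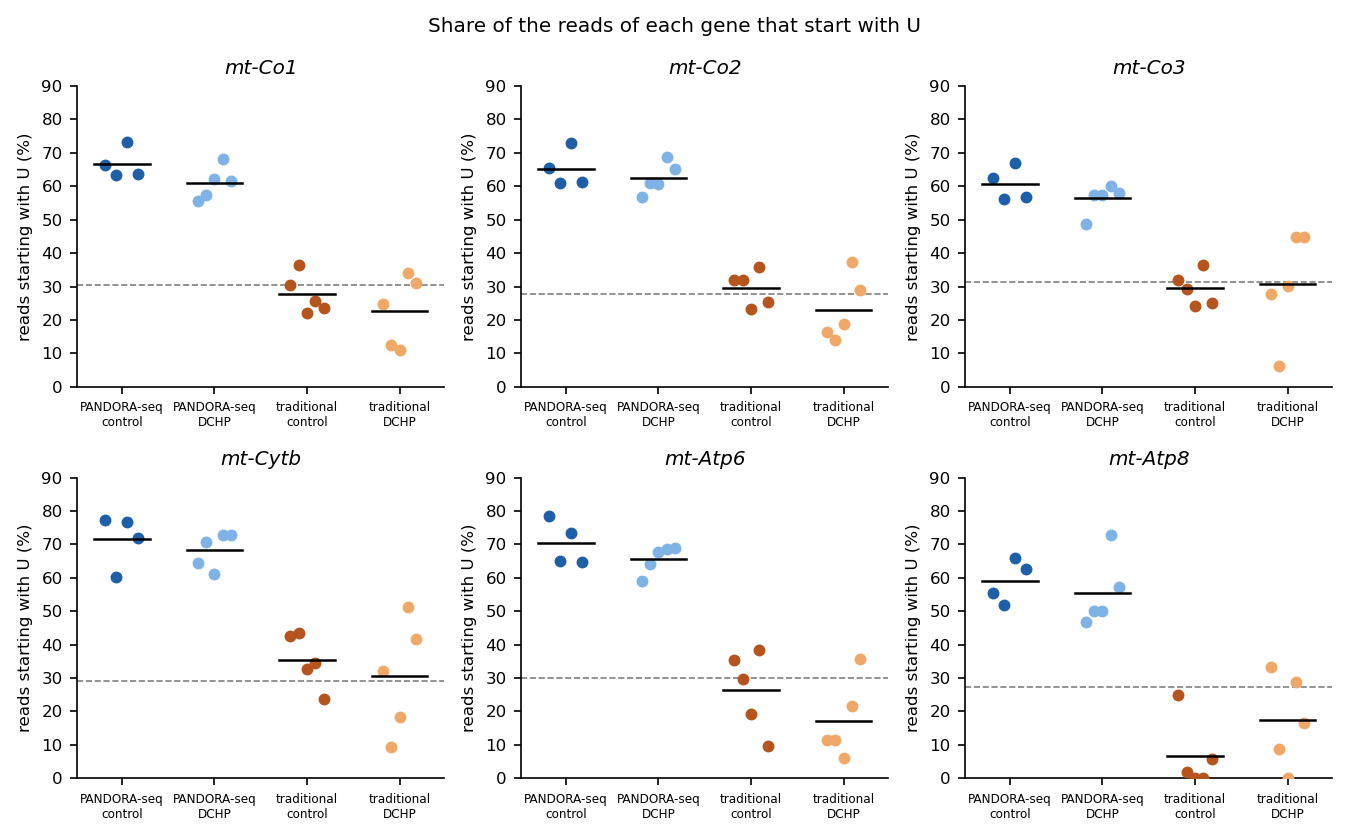
Percentage of the reads of each of the 6 genes that start with U, 1 point per library in each group, with a short line at the group mean and a dashed line at the share of U among the bases of the gene. PANDORA-seq libraries lie between 46.9% and 78.5% and traditional libraries between 0.0% and 51.1% over the 6 genes.

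Reads were unevenly spread along the genes. The most covered window of 50 nt in mt-Cytb, bases 283 to 332, held 68.4% ± 6.87 of the gene's reads in PANDORA-seq controls and 66.4% ± 7.95 with DCHP, while the window is 4.37% of the gene. In traditional RNA-seq, where the leading window began only 2 bases later, these bases held 40.3% ± 9.02 and 33.0% ± 6.003. In mt-Atp6 bases 464 to 513 held 58.4% ± 6.97 and 56.0% ± 8.45 in PANDORA-seq and 37.6% ± 16.3 and 28.0% ± 8.61 in traditional RNA-seq. In mt-Co3 bases 698 to 747, near the end of the gene, held 45.8% ± 9.50 and 42.8% ± 2.68 against 23.0% ± 5.98 and 22.4% ± 6.54. The ranges of the methods did not overlap for mt-Cytb and mt-Co3 in either exposure group, and did for mt-Atp6 in controls. With each distinct read counted once, the shares in the leading windows overlapped between methods, at 38.8% to 49.6% over the PANDORA-seq and 26.6% to 45.7% over the traditional libraries for mt-Cytb and 24.4% to 28.8% and 10.7% to 31.8% for mt-Co3. These windows were chosen for their coverage in PANDORA-seq, so their shares carry no test. Counted this way, the leading PANDORA-seq window of mt-Atp6 was bases 108 to 157 with 40.3%, that of mt-Co3 was still 698 to 747 but with 26.9%, against 44.3% by reads, and that of mt-Cytb held 44.7%, against 67.4% by reads. With a window of 100 nt the leading bases of mt-Atp6 in traditional RNA-seq were 110 to 209, with 47.2%, and those of mt-Co3 were 242 to 341, with 37.1%.

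In mt-Co1 bases 872 to 921 led in PANDORA-seq with 17.5% over its 9 libraries (11.3% to 22.02%), and bases 218 to 267 led in traditional RNA-seq with 16.3% over its 10 (7.07% to 28.4%). The lead in traditional RNA-seq was narrow, since bases 872 to 921 held 15.1% ± 5.76 there in controls and 13.7% ± 6.96 with DCHP. With each distinct read counted once, the leading windows of mt-Co1 were bases 1352 to 1401 in PANDORA-seq and 862 to 911 in traditional RNA-seq. In mt-Co2 bases 302 to 351 led in PANDORA-seq with 23.6%, and bases 381 to 430 led in traditional RNA-seq, where they held 24.8% ± 2.34 and 23.98% ± 3.48 against 11.1% ± 2.79 and 13.1% ± 2.03 in PANDORA-seq. With a window of 100 nt both methods had the same leading bases in mt-Co2, 317 to 416, with 35.1% and 39.7%. Bases 293 to 342 of mt-Co3 were picked because the share in traditional RNA-seq exceeded that in PANDORA-seq most there. They held 21.3% ± 8.36 in traditional controls and 3.03% ± 0.34 in PANDORA-seq controls, and 17.0% ± 6.42 and 4.175% ± 0.76 with DCHP. The choice fixed the direction of this difference. The leading traditional window of 50 nt in mt-Co3 was bases 702 to 751. mt-Atp8 reads lay mostly in its last part in both methods, with 68.8% at bases 114 to 163 in PANDORA-seq and 68.9% at bases 136 to 185 in traditional RNA-seq.

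Over the bases of a gene, the mean profiles of control and DCHP libraries had Pearson's r of 0.968 (mt-Co2) to 0.997 (mt-Cytb) in PANDORA-seq and 0.851 (mt-Atp6) to 0.972 (mt-Co2) in traditional RNA-seq. The profiles are means of RPM, so a library with a high level weighs more. Traditional DCHP 2 held 16.9 RPM of mt-Atp6 against 1.81 to 4.66 in the other DCHP libraries. The mt-Atp6 profile of that group peaked at base 141, and that of traditional controls at base 501. The r without that library was not computed. Between methods in controls r was 0.648 (mt-Co1) to 0.944 (mt-Cytb). Neighbouring bases share reads, so these values are a description of 204 to 1545 bases per gene and carry no p. With equal numbers of reads drawn per library, the share of the gene that was covered was 32.0% ± 4.45 in PANDORA-seq controls and 35.2% ± 5.86 in traditional controls for mt-Cytb (84 reads), and 69.9% ± 3.46 and 59.6% ± 8.20 for mt-Co1 (275 reads). With DCHP the methods overlapped for mt-Co1, at 70.75% to 72.6% in PANDORA-seq and 64.6% to 72.9% in traditional libraries.

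**Figure D5:**
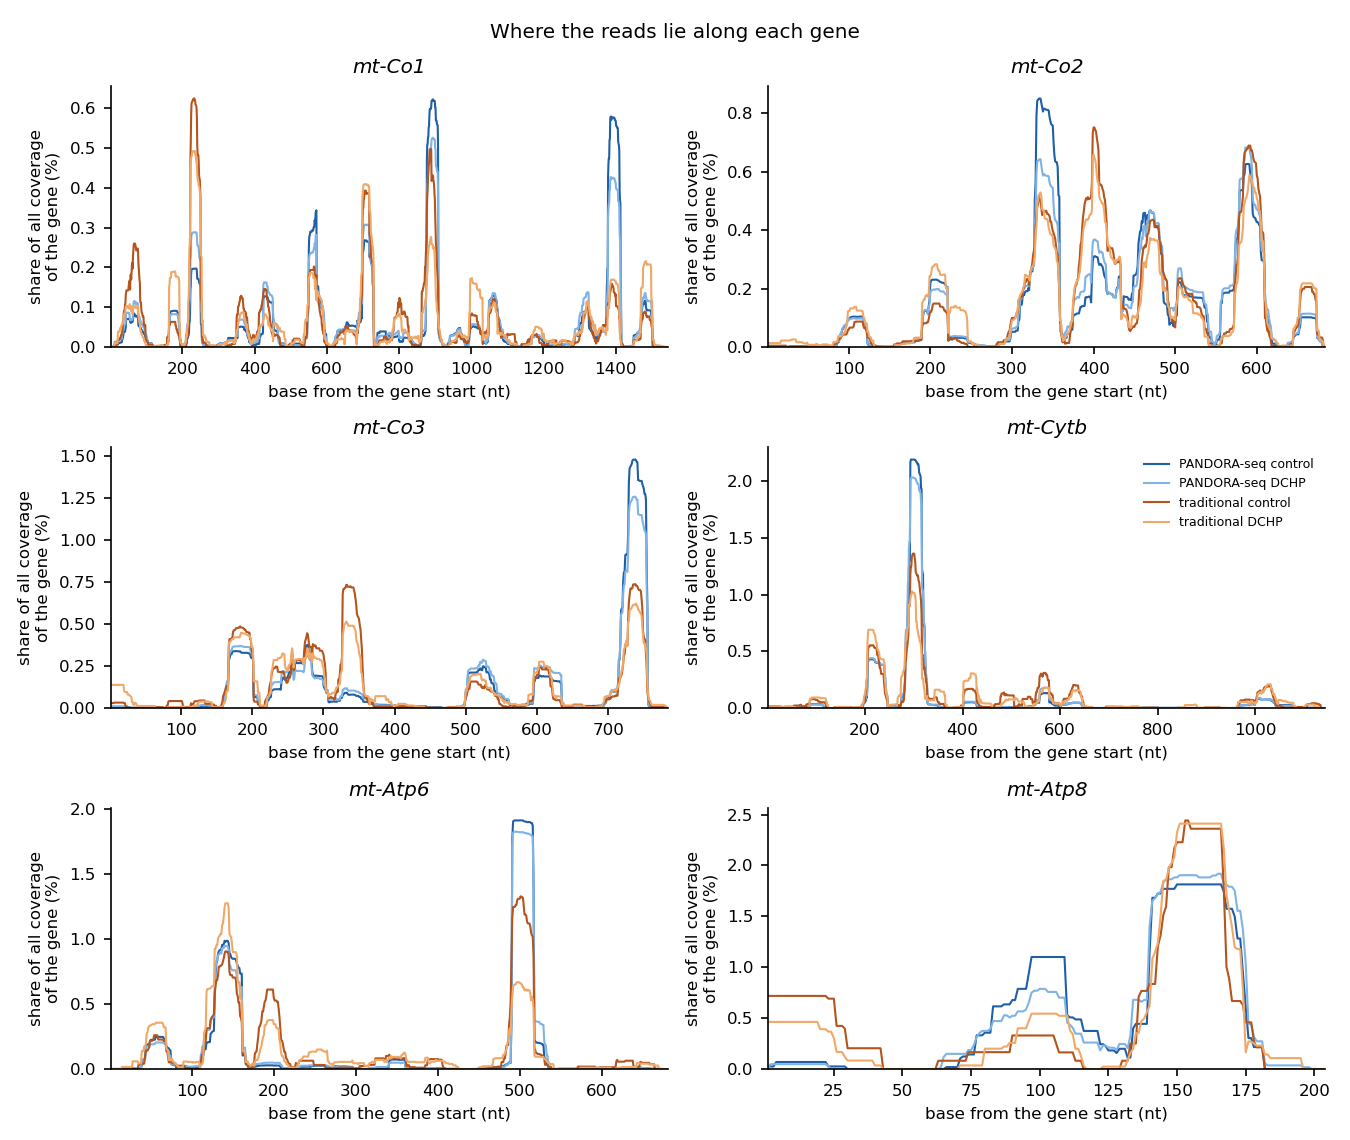
Share of all read coverage of each of the 6 genes (%, each gene on its own axis) that lies on each base, by distance from the first base of the gene in nt, for the 4 groups. Profiles are means of RPM over libraries, so a library with a high level weighs more. In PANDORA-seq the highest peaks of mt-Cytb, mt-Atp6 and mt-Co3 are at bases 296, 494 and 738, mt-Atp6 has a lower peak near base 141, and mt-Co2 has its maximum at base 334 in controls and 589 with DCHP.

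Some of these reads could also come from nuclear copies of mitochondrial DNA. Exact copies in annotated nuclear transcripts and pseudogenes cover 100% of mt-Co2, 99.9% of mt-Co3, 99.6% of mt-Atp6 and 95.2% of mt-Co1, but 66.6% of mt-Cytb and 31.4% of mt-Atp8 in shorter stretches. The longest is 681 bases for mt-Co2 and 47 bases for mt-Cytb. Copies on either strand of a transcript were counted. Reads that such a transcript holds in its own direction cannot be told apart by sequence. Dropping all reads inside copies of either direction left mt-Co2, mt-Co3 and mt-Atp6 without a testable read. Reads matching only the opposite strand of a transcript were not separated. Of the 3 genes left, mt-Co1 and mt-Cytb were called higher in PANDORA-seq controls per total read, by 1.62 (edgeR adjusted p = 0.00151) and 3.06 (9.12e-05), where mt-Atp8 was at 0.41. With all reads counted, 65.4% of 11264 genes were called higher in controls per total read. With DCHP 1 of the 3 was called higher, where that share was 74.0% of 11533 genes. Where mt-Co1 has its longest copy, bases 1067 to 1545, traditional control libraries held 5.19 ± 2.77 RPM per kb against 13.6 ± 4.21 in the rest of the gene, and PANDORA-seq controls 36.4 ± 19.5 against 40.9 ± 17.0. The rest of the gene also lies mostly in copies, which cover 95.2% of mt-Co1. These values therefore do not separate copied from uncopied bases.

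Reads on the opposite strand were rare. They made up 0.840% ± 0.155 of the reads on the 6 genes in PANDORA-seq controls and 0.871% ± 0.225 with DCHP, and 3.63% ± 1.78 and 4.00% ± 2.19 in traditional RNA-seq. mt-Cytb had the highest share among the 5 longer genes in traditional RNA-seq, 10.8% ± 6.04 in controls and 10.02% ± 6.10 with DCHP. Reads that crossed the start or the end of a gene were 0.0754% of the reads of PANDORA-seq controls and 0.124% of PANDORA-seq DCHP libraries, 0.729% of traditional control and 1.34% of traditional DCHP. In traditional DCHP 123 of them crossed a start and 4 an end, and 57 and 37 of the 123 were mt-Co1 reads of DCHP 2 and DCHP 3. The split between start and end was 58 and 7 in traditional controls and 33 and 6 in PANDORA-seq DCHP. In PANDORA-seq controls it was nearly even, at 13 and 11. No read of 18 nt or more ended at the last base of a gene with 3 or more added A, while 10 PANDORA-seq and 259 traditional reads carried such a tail elsewhere in the genes.

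The other respiratory chain genes were read from lists of complex subunits. None of the 7 complex I genes of the mitochondrial genome, nor of the nuclear subunits tested (9 of complex III, 13 and 11 of complex IV, 15 of ATP synthase), passed edgeR for DCHP in either method. Between methods in controls, per total read, 6 of 7 complex I genes were higher in PANDORA-seq (median log2 difference 1.66, against 2.13 over the 6 members and 1.495 over all genes), and with DCHP 3 of 7 were (median 0.93, against 1.31 and 1.69). Of the nuclear subunits 8 of 9 in complex III, 10 of 12 in complex IV and 15 of 15 in ATP synthase were higher in controls, with 1 of complex IV lower. With DCHP the counts were 9 of 9, 10 of 13 with 2 lower, and 15 of 15. These shares stand beside the 65.4% and 74.0% of all genes called higher, and under nuclear mRNA scaling only 4.75% and 11.9% of all calls were higher.

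The most abundant nuclear partners were the following. Atp5b, the catalytic beta subunit of ATP synthase, was at 41.1 ± 2.25 RPM in PANDORA-seq controls and 9.66 ± 7.62 in traditional controls (log2 difference 2.09, edgeR adjusted p = 0.00144), and its alpha partner Atp5a1 at 23.8 ± 1.69 and 7.69 ± 5.21 (1.63, 0.00308). Cox4i1, a regulatory subunit of cytochrome c oxidase, was at 11.8 ± 1.17 and 3.68 ± 2.07 RPM, and Cox6c at 8.82 ± 3.47 and 3.79 ± 2.12. Uqcrh and Uqcr11 of complex III were at 8.68 ± 2.21 and 8.58 ± 1.26 RPM in PANDORA-seq controls against 1.87 ± 1.05 and 1.35 ± 0.91. The spread of mt-Co1 over the same PANDORA-seq controls was wider, at 61.1 ± 27.4 RPM.

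Markers of sperm and of other cells were read from fixed lists. All 12 genes of sperm and late spermatids had reads in every group, and they summed to 204.7 to 271.8 RPM in PANDORA-seq control and 188.0 to 368.8 RPM in traditional control libraries, with 203.1 to 324.4 and 220.5 to 329.9 RPM for DCHP. The 11 genes of epididymal epithelium summed to 584.9 to 969.9 RPM in PANDORA-seq control, 573.6 to 1009 in PANDORA-seq DCHP, 81.8 to 248.0 in traditional control and 60.2 to 148.7 in traditional DCHP libraries, with Lcn8 at 0 in 3 groups and Lcn5 at 0 in traditional DCHP. Red blood cell genes (6 of 6 with reads) summed to 7.07 to 31.0 RPM in PANDORA-seq and 0.518 to 4.73 in traditional libraries. White blood cell genes (4 of 4) summed to 23.9 to 38.3 and 4.08 to 24.9 RPM, and smooth muscle genes (3 of 3) to 19.5 to 37.0 and 3.03 to 33.9 RPM. Per total read, 6 of 8 epididymal genes tested were higher in PANDORA-seq controls and 8 of 8 with DCHP, and 6 of 12 sperm genes were higher in each, with 1 and 2 lower. Of all genes tested, 65.4% in controls and 74.0% with DCHP were called higher per total read. With nuclear mRNA reads as the library size, 4.75% and 11.9% of all calls were higher. The part of other cells in the levels of the 6 genes was not tested.

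Across the 19 libraries, the genes whose RPM ranked most like each member were found among 11374 genes by Spearman's rho. They were Cdo1 (rho 0.968) and Gsta3 for mt-Co1, Ift52 (0.947), mt-Co3 and Plcg1 for mt-Co2, and Fdps (0.963), Heca and mt-Co2 for mt-Co3. For mt-Cytb they were Rap1a (0.965), Psmc1 and Eif2b5, for mt-Atp6 4931406C07Rik (0.942), mt-Nd5 and Sys1, and for mt-Atp8 Gm22744 (0.779), Gm23969 and Cep126. The 19 points share the method, which differs between the sets of 9 and 10 libraries, and the rho values are a description.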

How the data were processed

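The authors deposited, for each of the 19 libraries, counts of each distinct cleaned read sequence, not normalized. Adapter trimming settings are not given in the sources used here. The study names SPORTS1.1 with 1 mismatch for its annotation, and the submitters' processing notes name mm10. Here reads of 18 to 45 nt were matched without mismatch to GENCODE M21 transcripts (22 mitochondrial tRNAs, 2 mitochondrial rRNAs, 354 nuclear rRNAs, 2202 hairpins, 3532 other small RNAs and 21864 nuclear mRNAs), with Python 3.11.15. Read counts per gene were tested with edgeR 4.0.16 (quasi-likelihood, library size all cleaned reads, filterByExpr with a minimum count of 10) in R 4.3.3. Mean length and first-base shares were tested with limma 3.58.1 for genes with at least 50 reads in every library. DESeq2 1.42.0, other library sizes and single left-out libraries were alternatives. The scripts were tested on simulated data with 200 changed genes. Adjusted p-values are Benjamini-Hochberg over all genes tested, at a threshold of 0.05, and all tests were two-sided.

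The text names all 6 members, the 2 most abundant genes of each nuclear list, the leading read per method and the 3 genes ranked most like each member; some items are not reported here. Members and lists were chosen with earlier results of these data known. Control and DCHP libraries with the same replicate number had correlations of -0.179 to 0.168. Between methods the correlations were all positive, at 0.0115 to 0.306. The study states that RNA from control and exposed sires went through both methods. The labels do not say whether equal replicate numbers mark the same animals, and the main tests did not pair libraries. Tests between methods may therefore count shared animals as independent libraries, and a replicate block was run as an alternative. No 2 libraries of a group agreed within sampling noise (chi-square per degree of freedom of 6.65 or more over 36 pairs). Depth was 21588335 to 56506344 reads per library.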

Additional observations from a re-analysis of the deposited data

Results flagged for a closer look

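In 8 of 64 sets of values, 1 library lay far from the others by Dixon's criterion. A set holds the level, mean length or share starting with U of 1 gene in 1 group of 4 or 5 libraries. Chance meets the criterion in about 1 in 20 independent sets. These sets share libraries, so the 8 cannot be tested against that rate. Traditional DCHP 2 lay far from its group in the level of 4 genes. Its mt-Co1 level was 81.9 RPM against 10.8 to 23.2 RPM in the other 4, and mt-Co2 was at 27.8 RPM against 6.67 to 11.2. In the same library mt-Cytb stood at 15.2 RPM against 3.04 to 4.53, and mt-Atp6 at 16.9 RPM against 1.81 to 4.66. PANDORA-seq control 3 held 31.7 RPM of mt-Atp6 against 12.2 to 15.3 RPM in the other 3 controls. Its mt-Co2 reads were 31.8 nt long on average, against 32.5 to 32.7 nt. The mt-Atp6 reads of PANDORA-seq control 4 averaged 30.3 nt against 29.5 nt in each of the other 3 controls. In PANDORA-seq DCHP 1, 48.8% of mt-Co3 reads began with U, against 57.4% to 60.04% in the other 4.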

How the results depend on the processing

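Counts of members called kept within 1.5 times under all alternatives except those between methods given here. In controls, 5 members were called per total read, 1 under TMM and 1 with nuclear mRNA reads as the library size (mt-Atp8, lower). DESeq2 called 2, and 2 of 3 were called without reads that nuclear transcripts hold on either strand. With DCHP, in the same order, 4 became 1 (mt-Atp8, lower), 2 (mt-Co1 and mt-Atp8, both lower), 2 (1 higher, 1 lower) and 1 of 3. Over all genes in controls, TMM called 1164 of 11264 higher and 2203 lower, and the nuclear mRNA size 221 of 11397 higher and 4435 lower. With DCHP these were 2357 of 11533 and 2899, and 603 of 11210 and 4467. DESeq2 called 1734 of 20101 higher and 3131 lower in controls, and 3008 of 20438 and 4437 with DCHP. Per total read, with all reads counted, 65.4% and 74.0% were called higher. By DESeq2, 35.6% of the calls over all genes were higher in controls and 40.4% with DCHP. The share of reads in the leading window moved by more than its SD in 11 of 24 values with 100 nt windows or distinct reads. With reads of 25 nt or more, 2 of the 5 members tested with DCHP were longer in PANDORA-seq. The share of all genes called longer under that setting is not reported here. The nuclear mRNA size, the nuclear-held reads and the start-U tests were chosen after seeing the data. Leaving out reads that match a nuclear chromosome was not run, since no genome was used, and annotated nuclear transcripts took its place.

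Between methods in controls the log2 difference of mt-Atp8 turned to -1.40 under TMM, -1.96 with the nuclear mRNA size, -0.73 with sequences of at least 2 reads and -1.33 in DESeq2, and with the nuclear mRNA size mt-Co1, mt-Co2 and mt-Co3 were at -0.39, -0.11 and -0.24. With DCHP, mt-Co1, mt-Co3 and mt-Atp6 were at -0.59, -0.12 and -0.25 under TMM and -0.54, -0.059 and -0.19 in DESeq2. With the nuclear mRNA size mt-Co1, mt-Co2, mt-Co3 and mt-Atp6 were at -1.19, -0.40, -0.71 and -0.83. mt-Atp8 turned to 5.51 with miRNA hairpins as the size and 6.67 with hairpin reads of 20 to 24 nt, both called higher, and 0.087 with reads of 25 nt or more. The cause was not tested.

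The DCHP effect on mt-Atp8 in PANDORA-seq, -0.01, became 0.046 with miRNA hairpins, 0.15 with hairpins of 20 to 24 nt, 0.076 with nuclear mRNA, 0.045 with at least 2 reads per sequence and 0.18 with the replicate block. Without both high libraries the difference between methods was 0.29, 0.48, 0.15 and 0.50 for mt-Co1, mt-Co2, mt-Co3 and mt-Cytb. Length differences turned to -0.015 nt for mt-Co1 in PANDORA-seq (replicate block), -0.26 nt for mt-Co2 in traditional RNA-seq (at least 2 reads) and -0.12 nt for mt-Atp6 between methods with DCHP (25 nt or more).

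Leaving out 1 library at a time, the PANDORA-seq effect ran from -0.47 to 0.054 for mt-Co1, -0.41 to 0.24 for mt-Co2, -0.45 to 0.15 for mt-Co3, -0.51 to 0.23 for mt-Cytb and -0.53 to 0.26 for mt-Atp8. The traditional effect ran from -0.24 to 0.92 for mt-Co1, -0.23 to 0.41 for mt-Co2 and -0.26 to 0.62 for mt-Cytb, and the difference between methods from -0.65 to 0.029 for mt-Co2. Lengths ran from -0.015 to 0.85 nt for mt-Co1 in PANDORA-seq and -0.35 to 0.57 nt for mt-Co2 in traditional RNA-seq, and start-U differences in traditional RNA-seq from -10.0 to 0.40 points for mt-Cytb and -2.20 to 7.45 for mt-Co3. The members called between methods with DCHP ran from 3 to 5. With the replicate block 0 members were called for DCHP in either method, and 5 in controls and 5 with DCHP between methods; it changed no count of calls by over 1.5 times.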
